A study of Homo sapiens with 3 samples.

Results

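Histone genes make the proteins that DNA is wound on, and 54 of the 16793 gene symbols measured in H446 cells belonged to the replication-dependent histone genes and the histone variants described here. Members were taken by symbol alone. They were all symbols starting with HIST1H, HIST2H, HIST3H or HIST4H, and 10 named variant genes. The clustered genes numbered 45, with 3 for the linker histone H1, 13 for H2A, 11 for H2B, 8 for H3 and 10 for H4. The cluster named HIST1, on chromosome 6, held 31 of them, while HIST2 and HIST3, on chromosome 1, held 12 and 2, and no HIST4 symbol was listed. Of the variants 9 were measured, namely H1F0, H1FX, H2AFJ, H2AFV, H2AFX, H2AFY, H2AFZ, H3F3A and H3F3B. The tenth, H2AFY2, was not analysed here.

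H446 is an established human small cell lung cancer cell line. Its cells were kept for 48 h with vehicle, with 5 µM or with 10 µM of 3-Bromoascochlorin (BAS), a brominated form of the fungal product ascochlorin. Each of the 3 groups had 1 RNA-seq library. No spread between replicates could therefore be measured, no test was possible, and every difference below is a difference between 2 libraries. Both BAS libraries were compared with the same vehicle library, so their differences from it are not independent.

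Replication-dependent histone genes lie in clusters, have no introns as a rule, and are switched on as cells enter S phase so that new DNA can be packed into nucleosomes. Their mRNAs usually end in a short stem-loop in place of a poly(A) tail. The stem-loop binding protein SLBP holds that structure through processing, translation and decay, and the mRNAs are degraded quickly when DNA synthesis stops. Some clustered genes, HIST1H2BD, HIST1H2BK, HIST1H2AC and HIST1H1C among them, are known to give polyadenylated transcripts as well. Variant genes stand alone, mostly carry introns and poly(A) tails, and are expressed through the cell cycle. The labels give total RNA as the starting material and do not say whether polyadenylated RNA was selected or ribosomal RNA removed. Levels of the clustered genes depend on that step, and their low values beside the variants cannot be told apart from it.

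The stem-loop is shown because it was found in most clustered genes that could be searched and in few variants. It was searched in GENCODE 29 transcripts (build GRCh38) as a perfect stem of 6 base pairs beginning with GG and closed by a loop of 4 bases, after the coding part. A stem-loop of another form would be missed. Each sequence below runs 5′ to 3′ over 26 bases, with the arms of the stem in capitals.
HIST1H2AC: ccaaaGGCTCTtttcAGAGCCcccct
HIST1H2BD: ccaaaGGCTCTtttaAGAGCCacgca
HIST3H2A: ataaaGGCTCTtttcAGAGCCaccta
HIST2H2BE: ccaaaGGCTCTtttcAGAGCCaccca
HIST2H4A: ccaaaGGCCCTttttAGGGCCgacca
HIST1H4J: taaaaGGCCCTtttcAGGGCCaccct
HIST1H3E: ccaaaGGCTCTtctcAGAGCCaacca
H2AFX: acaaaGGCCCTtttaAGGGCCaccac

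Among the 45 clustered genes, 29 had an annotated 3′ end of at least 16 bases, and 24 of these held the stem-loop. HIST1H2BK and HIST1H1C, the most abundant clustered genes with vehicle, had no annotated 3′ end and could not be searched. Of the 9 variants, only H2AFX held the stem-loop. There were 6 versions of the 16 bases. The commonest, seen in the lines of HIST1H2AC, HIST3H2A and HIST2H2BE, occurred in 13 genes. The stem GGCCCT with its partner AGGGCC was found in 7 clustered genes, all of type H4, and in H2AFX. In 18 clustered genes the annotated transcript ran at least 100 bases past the stem-loop, by 1114 bases in HIST1H2AC, 390 in HIST3H2A and 1729 in HIST2H2BE, and in H2AFX it ran 1044 bases past it. In HIST1H4J it stopped 6 bases after the structure. The shorter of the annotated HIST1H2BD transcripts held the stem-loop and the longer did not.

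Many H2A and H2B genes lie head to head, their starts separated by a short stretch that serves both. The stretches below carry the results on paired genes, and the HIST1H2BK sequence belongs to the most abundant clustered gene in vehicle. They are RefSeq sequences of build GRCh38.p14, and capitals mark the octamer motif ATTTGCAT or its reverse complement ATGCAAAT, the sequence bound by the factor POU2F1.
HIST2H2BE and HIST2H2AC, between the starts, chr1:149886683-149886917, plus strand: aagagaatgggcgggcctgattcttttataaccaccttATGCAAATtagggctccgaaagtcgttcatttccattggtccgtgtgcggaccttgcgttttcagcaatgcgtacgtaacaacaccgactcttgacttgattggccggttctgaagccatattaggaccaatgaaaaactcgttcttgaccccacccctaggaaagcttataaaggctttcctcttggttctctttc
HIST1H2BC and HIST1H2AC, between the starts, chr6:26123927-26124171, plus strand: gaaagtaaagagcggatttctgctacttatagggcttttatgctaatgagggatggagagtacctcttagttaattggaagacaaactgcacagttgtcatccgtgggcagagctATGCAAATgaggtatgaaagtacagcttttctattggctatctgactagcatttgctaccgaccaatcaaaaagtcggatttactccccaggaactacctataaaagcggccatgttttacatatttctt
HIST3H2A and HIST3H2BB, between the starts, chr1:228457874-228458102, plus strand: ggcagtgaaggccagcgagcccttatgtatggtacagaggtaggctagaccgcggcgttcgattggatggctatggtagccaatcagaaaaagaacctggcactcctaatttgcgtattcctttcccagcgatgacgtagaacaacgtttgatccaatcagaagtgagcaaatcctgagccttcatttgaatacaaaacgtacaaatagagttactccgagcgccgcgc
HIST1H2BK, 200 bases before the start, chr6:27146856-27147055, minus strand: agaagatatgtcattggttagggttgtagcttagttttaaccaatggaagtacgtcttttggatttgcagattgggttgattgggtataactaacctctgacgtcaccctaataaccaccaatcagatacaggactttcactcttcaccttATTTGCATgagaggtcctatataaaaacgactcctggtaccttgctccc

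RefSeq promoter windows, from 250 bases before to 50 after a start, were found for 51 of the 54 members. The octamer, on either strand, stood in 8 of 12 H2A genes (66.7%), 8 of 11 H2B genes (72.7%), 1 of 8 H3 genes (12.5%) and in none of 3 H1 or 9 H4 genes. Among all 35116 windows of that length 623 held it (1.77%). Paired genes share the same bases, so these genes are not separate occurrences. The H3 gene, HIST1H3D, held it only in a window that is also the window of HIST1H2AD. A gene was counted if any of its windows held the motif, while the share of all windows is per window. Of the 8 variants with a window 1 held it, H3F3B. A second motif, CCAAT on either strand, was present in 35 of 43 clustered genes (81.4%), in 1 of 9 H4 genes (11.1%), in 7 of 8 variants (87.5%) and in 34.6% of all windows. The motifs can share their end letters, and overlap between them was not counted. Both are matches of letters and do not show binding.

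Values are FPKM, fragments scaled to transcript length and to the size of the library, as the authors deposited them. The clustered genes together summed to 297.52 FPKM with vehicle, 129.41 with 5 µM BAS and 91.69 with 10 µM, which are 0.435 and 0.308 of the vehicle sum. The 9 variants summed to 1910.62, 1787.81 and 1868.22 FPKM, or 0.936 and 0.978 of vehicle. Over only the 20 clustered genes that passed a filter on low values, described below, the ratios were 0.434 and 0.31. Clustered genes thus gave 13.5% of the FPKM of all members with vehicle, 6.75% with 5 µM and 4.68% with 10 µM. The variant ratio at 10 µM lay between 0.938 and 1.01 under the scalings tried, so its direction flips with scaling, while the clustered ratio at 10 µM stayed between 0.293 and 0.308.

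Gene by gene, 36 of the 45 clustered genes were lower than vehicle by any amount at 5 µM, 7 were higher and 2 equal. At 10 µM 38 were lower, 3 higher and 4 equal. Under the scalings tried the counts of lower genes were 36 to 39 at 5 µM and 38 at 10 µM. Among all 16793 symbols, 47.0% were lower at 5 µM and 43.3% at 10 µM. Differences were also taken as log2(FPKM + 1), which understates the change of genes with low values. On this scale the median over all 45 clustered genes was −0.48 at 5 µM and −0.60 at 10 µM, and that over all symbols was 0.00 and 0.02. The 9 variants had medians of −0.01 and 0.05.

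**Figure D1:**
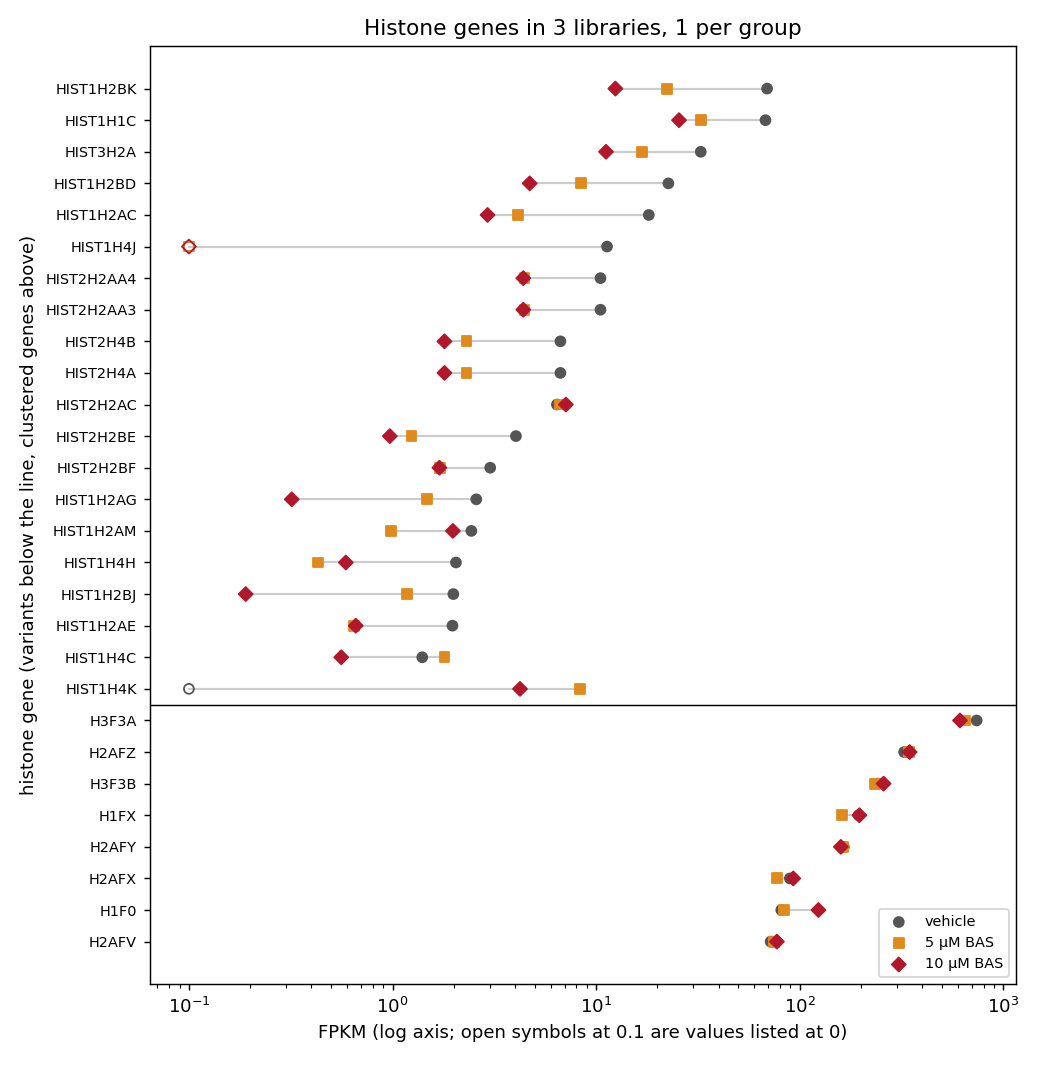
Level of each histone gene past the filter (FPKM on a log axis) in the vehicle, 5 µM and 10 µM libraries, 1 point per library, with open symbols at 0.1 for values listed at 0. The variants sit at 72.04 FPKM or more in every library and their points lie close together, while most clustered genes sit lower and have the vehicle point to the right of both BAS points.

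Calls were made for the 11512 genes whose 3 values averaged 1 FPKM or more. They required a difference in log2(FPKM + 1) of 1 or more in size, that is 2-fold in FPKM + 1. A gene with low values can pass 2-fold in FPKM and not be called, as HIST1H2AE did at 0.33 and 0.335 of vehicle. That filter kept 20 of the 45 clustered genes and 8 of the 9 variants, all but H2AFJ. At 5 µM 11 of the 20 clustered genes were called lower and 1 higher, against 0.217% called lower and 0.539% called higher of all genes past the filter. At 10 µM 13 were called lower and 1 higher, against 0.643% and 1.31% of all genes. None of the 8 variants was called at either dose. The 20 had a median of −1.05 at 5 µM and −1.34 at 10 µM, beside 0.02 and 0.05 for all genes past the filter and −0.03 and 0.07 for the variants. Of the 20, 5 (HIST1H2AE, HIST1H2AG, HIST1H2BJ, HIST1H4H and HIST1H4J) averaged under 1 FPKM in the BAS libraries and passed the filter through vehicle. Among the other 15, 9 were called lower at 5 µM and 10 at 10 µM. Among all genes past the filter, clustered genes made up 10 of the 20 with the lowest differences at 5 µM and 9 of the 20 lowest at 10 µM. Both counts include HIST1H4J, which passed the filter through vehicle, and both HIST2H4A and HIST2H4B, whose values are identical.

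Single clustered genes were mostly at low levels beside the variants. Their median level was 1.33 FPKM with vehicle, 0.53 with 5 µM and 0.37 with 10 µM, and 8, 3 and 3 of them reached 10 FPKM. The number listed at 0 was 5, 6 and 12. An FPKM of 0 in these files says only that the gene was listed at 0, since read counts are not given. Of the 9 variants 8 were at 10 FPKM or more in each library.

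**Figure D2:**
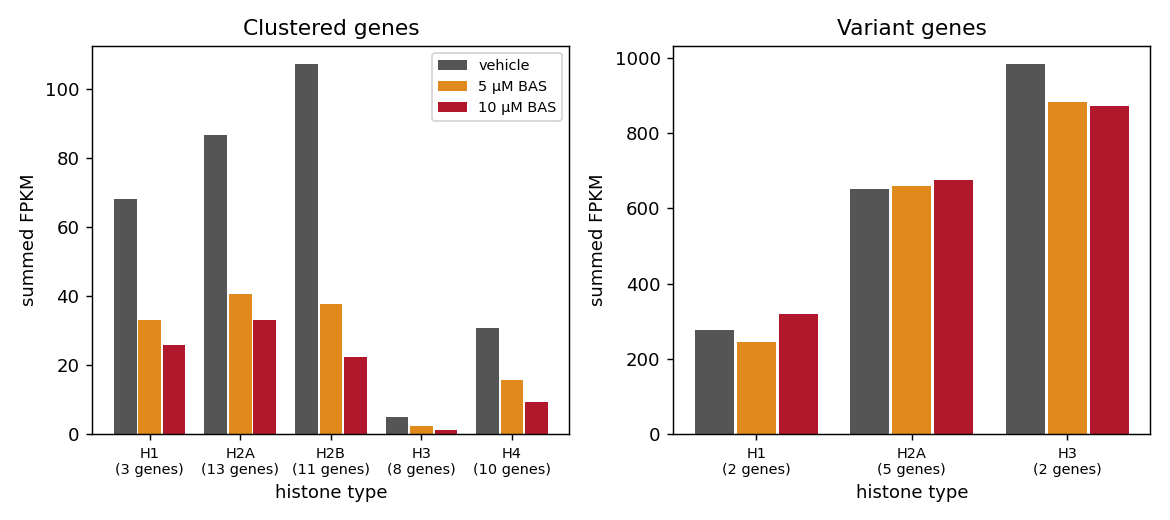
Summed FPKM per histone type in the vehicle, 5 µM and 10 µM libraries, for clustered genes (left) and variants (right), with 1 bar per library and separate axes from 0. Each clustered type is highest with vehicle and lowest with 10 µM, while the variant bars of H2A run from 652.29 to 676.46.

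Near-identical copies share reads, so sums per histone type were taken, over every measured member. H2B, the partner of H2A in the nucleosome, had the largest clustered sum with vehicle and the smallest share of it left at 10 µM among the 5 types. It stood at 106.96, 37.78 and 22.31 FPKM (vehicle, 5 µM and 10 µM), ratios of 0.353 and 0.209 to vehicle. The smallest share depended on HIST1H2BK. Without each type's highest member with vehicle, H3 had the smallest ratio at 10 µM, 0.184, and H2B had 0.261. H2A stood at 86.5, 40.51 and 33.09 FPKM, ratios of 0.468 and 0.383. The linker histone H1, which binds DNA between nucleosomes, stood at 68.14, 33.16 and 25.82 FPKM, ratios of 0.487 and 0.379. All 3 types were thus lower with 5 µM than with vehicle and lower again with 10 µM. H4 stood at 30.78, 15.6 and 9.28 FPKM, ratios of 0.507 and 0.301. H3 summed to only 5.14, 2.36 and 1.19 FPKM over its 8 genes, ratios of 0.459 and 0.232, and none of these genes passed the filter. Over the members past the filter the ratios at 5 and 10 µM were 0.345 and 0.198 for H2B, 0.465 and 0.387 for H2A, 0.484 and 0.376 for H1, and 0.539 and 0.319 for H4, close to those over every member. The H3 pool of mRNA measured here was nearly all from the variant genes, with the clustered genes giving 0.52%, 0.267% and 0.136% of it.

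By cluster, the HIST1 genes summed to 214.41, 87.46 and 57.52 FPKM, the HIST2 genes to 49.5, 24.54 and 22.5, and the HIST3 genes to 33.61, 17.41 and 11.67. The ratios to vehicle at 10 µM were 0.268, 0.455 and 0.347. The HIST2 sum thus showed little further difference between the doses, while the HIST1 and HIST3 sums were lower again at 10 µM. By gene, 11 of 12 HIST2 genes were lower with 10 µM than with 5 µM, as were 18 of 31 HIST1 and 2 of 2 HIST3 genes. The HIST2 sum holds both copies of the identical pairs described below, and HIST2H2AC, which was higher at 10 µM.

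A handful of genes made up most of the clustered sum. The 5 most abundant with vehicle, HIST1H2BK, HIST1H1C, HIST3H2A, HIST1H2BD and HIST1H2AC, gave 70.8% of it there. Each library's own 5 most abundant genes gave 68.6% with 5 µM, where HIST1H4K stood in place of HIST1H2AC, and 66.5% with 10 µM, where HIST2H2AC did. The 5 genes of the vehicle library were each highest with vehicle, intermediate with 5 µM and lowest with 10 µM.

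Among the H2B genes, HIST1H2BK was at 69.2 FPKM with vehicle, 22.26 with 5 µM and 12.44 with 10 µM, 0.322 and 0.18 of vehicle. In this gene 74.1% of the 50-base stretches of its transcripts also occur in other annotated genes, most in H2BFS, so its reads may be shared. HIST1H2BD, of which 5.95% is shared in that way, was at 22.66, 8.44 and 4.72 FPKM, ratios of 0.372 and 0.208. Its profile was close to that of HIST1H2BK with far less sharing. HIST2H2BE was at 4.04, 1.24 and 0.97 FPKM and HIST2H2BF at 3.02, 1.71 and 1.7. HIST1H2BJ was at 1.99, 1.18 and 0.19 FPKM. All 11 H2B genes were below vehicle at both doses.

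Among the H2A genes, HIST3H2A was at 32.67, 16.88 and 11.19 FPKM, 0.517 and 0.343 of vehicle. HIST1H2AC was at 18.15, 4.12 and 2.93 FPKM, 0.227 and 0.161 of vehicle. Neither has more than 0.591% of its 50-base stretches in common with another gene, so nearly all of the sequence of these 2 is their own. HIST1H2AG was at 2.58, 1.47 and 0.32 FPKM and HIST1H2AE at 1.97, 0.65 and 0.66. HIST1H2AM did not follow the order of the doses, with 2.44, 0.98 and 1.98 FPKM. HIST2H2AC stood apart, at 6.42, 6.63 and 7.11 FPKM. Its ratio at 10 µM was 1.06 to 1.11 under the scalings tried, and that at 5 µM, 0.993 to 1.03, changed direction among them.

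The linker gene HIST1H1C, which encodes the H1.2 protein, was at 67.94, 32.89 and 25.55 FPKM, 0.484 and 0.376 of vehicle. It made up nearly the whole H1 sum and has no 50-base stretch in common with another gene. HIST1H1E was at 0.2, 0.2 and 0.27 FPKM, and the testis gene HIST1H1T was listed at 0, 0.07 and 0.

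Among the H4 genes, which encode the same protein from different copies, HIST1H4J had 11.32 FPKM in the vehicle library and was listed at 0 with both doses. HIST1H4K was the reverse, with 0 in the vehicle library and 8.31 and 4.23 FPKM at 5 and 10 µM. The coding parts of these 2 genes have 0 differences over 309 bases. Added up they gave 11.32, 8.31 and 4.23 FPKM, and the sum at 10 µM was 0.374 of vehicle. HIST1H4K was the 1 clustered gene called higher, and with this pair added up no clustered gene was called higher at either dose. Without both copies the H4 sum was 19.46, 7.29 and 5.05 FPKM, ratios of 0.375 and 0.26, a setting chosen after the values were seen. HIST1H4H was at 2.05, 0.43 and 0.59 FPKM, and HIST1H4C at 1.4, 1.8 and 0.56.

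In 3 pairs of copies the values were identical in all 3 libraries, and the coding parts of each pair were 100% identical. HIST2H2AA3 and HIST2H2AA4 were each at 10.51, 4.45 and 4.39 FPKM. HIST2H4A and HIST2H4B were each at 6.68, 2.31 and 1.8, and HIST2H3A and HIST2H3C each at 0.58, 0.56 and 0.11. These count as 1 measurement per pair. With each pair counted once and HIST1H4J and HIST1H4K added up, a setting chosen after the values were seen, 8 of 17 clustered measurements were called lower at 5 µM and 11 of 17 at 10 µM, against 0.191% and 0.626% of all genes under that setting. Among pairs of clustered genes with coding parts of equal length, the median coding identity was 85.6% for H2A, 90.2% for H2B, 86.3% for H3 and 83.8% for H4. At least 50% of the 50-base stretches were found in another gene, on either strand, for 14 of the 45 clustered genes and for none of the 9 variants. Such a match need not be a copy of the same type. HIST1H2AK matched the H2B gene HIST1H2BN over 100% of its stretches. HIST1H2AD (98.0%) and HIST1H3D (100%) both matched the annotated gene AL031777.3. Of the 14 clustered genes past the filter and under the 50% limit, 6 were called lower at 5 µM and 8 at 10 µM, against 0.217% and 0.643% of all genes. Both counts include HIST2H4B, which at 49.3% lay just under the limit and has the same values as HIST2H4A.

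**Figure D3:**
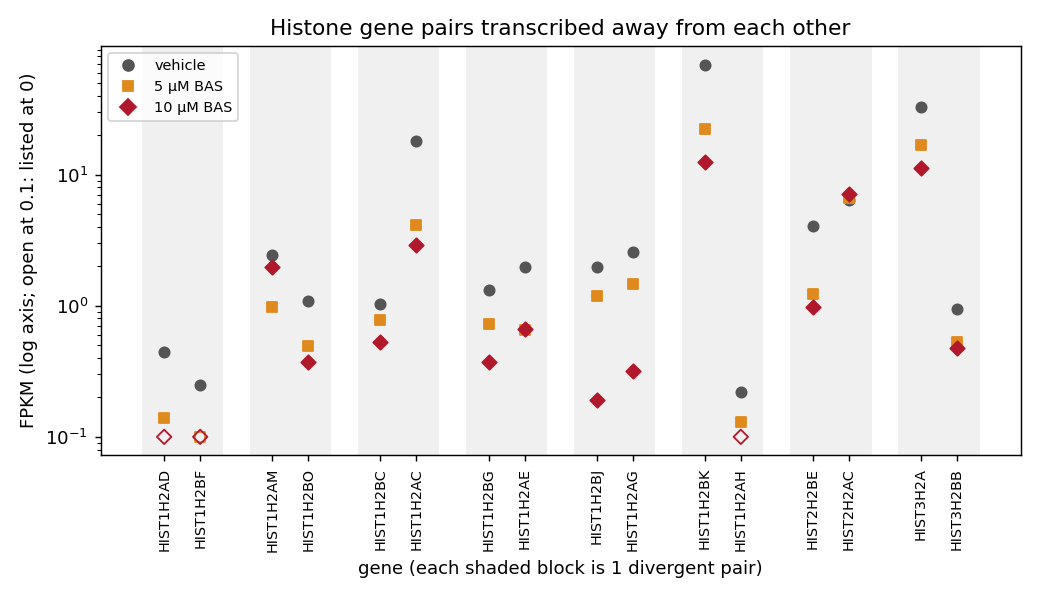
FPKM (log axis) in the vehicle, 5 µM and 10 µM libraries for the genes of the 8 head-to-head H2A and H2B pairs, each shaded block being 1 pair and open symbols at 0.1 being values listed at 0. The points of HIST2H2AC lie together, at 6.42 to 7.11, while the vehicle point of its partner HIST2H2BE, and of the other genes shown, lies above both BAS points.

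By the gene starts of GENCODE 29, 8 head-to-head pairs were found, with starts 218 to 330 bases apart. RefSeq, from which the stretches above were printed, places the starts at other bases. By RefSeq starts HIST1H2AK and HIST1H2BN also lie head to head, and this pair is not among the 8. HIST1H2AK was at 0.59, 0 and 0.12 FPKM and HIST1H2BN at 1.41, 0.43 and 0.54. In 7 of the 8 pairs both genes were below vehicle at both doses. They were HIST1H2BC with HIST1H2AC, HIST1H2BK with HIST1H2AH, HIST1H2BJ with HIST1H2AG, HIST1H2BG with HIST1H2AE, HIST1H2AM with HIST1H2BO, HIST1H2AD with HIST1H2BF, and HIST3H2A with HIST3H2BB. In the remaining pair HIST2H2BE was at 0.307 and 0.24 of vehicle and HIST2H2AC at 1.03 and 1.11, and the 235 bases printed above lie between their RefSeq starts. HIST2H2AC shares 30.5% of its 50-base stretches with other genes, foremost HIST2H2AA3. The partners also differed in level. HIST1H2AC was at 18.15 FPKM with vehicle and HIST1H2BC at 1.04, while HIST3H2A was at 32.67 and HIST3H2BB at 0.94.

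The 25 clustered genes under the filter were at 1.45 FPKM or less in every library and summed to 15.29, 6.9 and 4.17 FPKM. Of these 8 reached 1 FPKM, in each case with vehicle. They were HIST1H2BC, HIST1H2BG, HIST1H2BN, HIST1H2BO, HIST1H3D, HIST1H3H, HIST1H4E and HIST1H4I. HIST1H3H, for example, was at 1.36, 0.45 and 0.11 FPKM and HIST1H2BG at 1.33, 0.72 and 0.37. Genes listed at 0 in some libraries and not in others were HIST1H1T, HIST1H2AD, HIST1H2AH, HIST1H2AJ, HIST1H2AK, HIST1H2BF, HIST1H3B, HIST1H4B, HIST1H4D, HIST1H4E, HIST1H4I, HIST2H2AB, HIST2H3D and, among the variants, H2AFJ. In the 12 of these other than HIST1H4E and HIST1H4I no library was above 0.59 FPKM. The rest, HIST1H1E, HIST1H3E, HIST2H3A, HIST2H3C, HIST2H3PS2 and HIST3H2BB, were under 1 FPKM and above 0 in each library.

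The variants had no such common direction. The H3.3 genes H3F3A and H3F3B encode the same protein, which is placed into chromatin outside S phase and at active genes. H3F3A was the most abundant member, at 740.35, 648.4 and 613.12 FPKM, 0.876 and 0.828 of vehicle, and 12.9% of its 50-base stretches occur in other genes, mainly H3F3AP4. H3F3B was at 242.07, 234.64 and 258.44 FPKM. The H3 variants together were at 0.887 of vehicle at 10 µM.

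Of the H2A variants, H2AFZ encodes H2A.Z, found at promoters and enhancers, and was at 325.98, 343.23 and 346.86 FPKM. Its relative H2AFV was at 72.04, 74.89 and 77.28. H2AFY, which encodes macroH2A1, a variant with a large extra domain linked to silenced chromatin, was at 164.75, 164.1 and 159.32 FPKM. These 3 differed little among the libraries. H2AFX encodes H2A.X, which is phosphorylated beside DNA breaks, and is the variant whose mRNA carries the stem-loop shown above. It was at 89.52, 77.24 and 93.0 FPKM, 0.863 and 1.04 of vehicle, and its direction at 10 µM flips among the scalings tried (0.997 to 1.04). Most clustered genes were lower than vehicle at that dose. H2AFJ was listed at 0, 0.03 and 0 FPKM.

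At 10 µM the linker gene H1F0 had the largest difference from vehicle among the variants. It encodes H1.0, which accumulates in cells that have stopped dividing, and was at 81.21, 83.75 and 123.68 FPKM. Its ratio to vehicle was 1.52 at 10 µM (1.46 to 1.52 under the scalings tried), a log2(FPKM + 1) difference of 0.60, short of the 2-fold limit. It was higher with 10 µM than in the other two libraries, and HIST1H1C, the clustered H1 gene, was lowest there. H1FX was at 194.7, 161.53 and 196.52 FPKM, and its direction at 10 µM flips with scaling (0.968 to 1.03). Clustered genes gave 19.8% of the H1 sum with vehicle and 7.46% with 10 µM.

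Between the 2 doses, 31 of the 45 clustered genes were lower with 10 µM than with 5 µM, 10 were higher and 4 equal. None of the 20 past the filter was called, against 0.0434% of all genes called lower and 0.0434% called higher, and their median was −0.24 beside 0.04 for all genes (rounded). The difference in the clustered sum between 5 and 10 µM was smaller than that between vehicle and 5 µM. A level that was lower at 5 µM than with vehicle and lower still at 10 µM was seen for 24 of 45 clustered genes (53.3%), 2 of 9 variants (22.2%), H2AFY and H3F3A, and 18.0% of all symbols. The opposite order was seen for 1 clustered gene, HIST2H2AC (2.22%), for 3 variants, H1F0, H2AFV and H2AFZ (33.3%), and for 28.1% of all symbols.

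**Figure D4:**
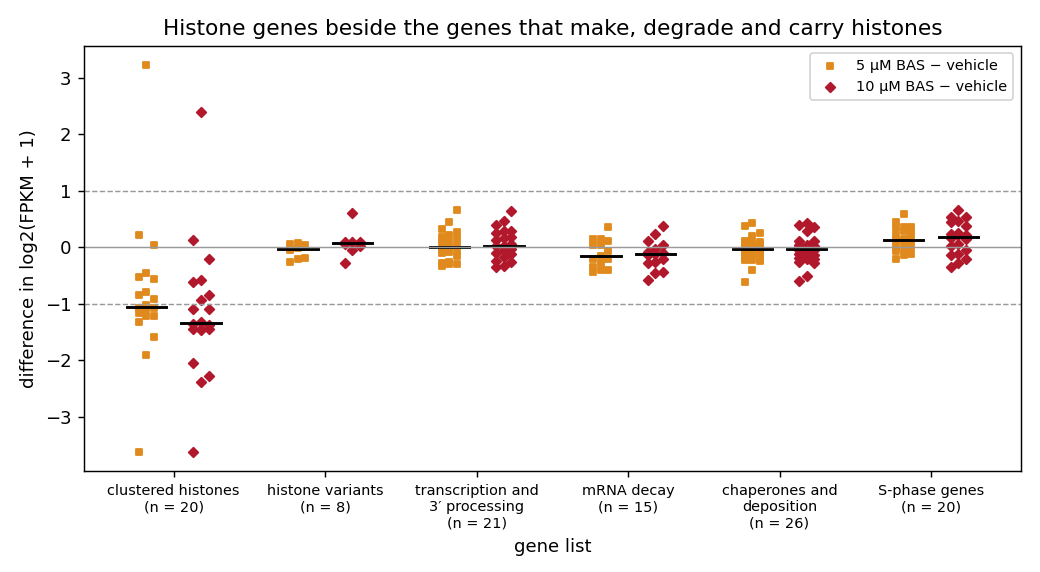
Difference from vehicle in log2(FPKM + 1) at 5 µM and 10 µM for each gene past the filter, in clustered histone genes, variants and 4 lists of genes that make, degrade or carry histones or act in S phase, with 1 point per gene, a black bar at each median and dashed lines at the 2-fold limit. Most clustered genes lie below −1 at 10 µM, and the points of the other lists lie between −1 and 1.

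The genes that make and handle histone mRNA were compared from lists chosen by function. At the shares of all genes called, 0.217% lower and 0.539% higher at 5 µM and 0.643% and 1.31% at 10 µM, a list of this size would hold about as few calls as the 0 found in each, so those counts are no result about the lists. The list for transcription and 3′ processing had 23 symbols, with MIZF and SLIP1 as second names of HINFP and MIF4GD. All its 21 genes were measured and passed the filter. None was called at either dose, 10 were lower and 11 higher at 5 µM, and 9 were lower and 12 higher at 10 µM (median 0.02). With other scalings 9 to 11 were lower at 10 µM and the median lay between −0.04 and 0.02, so its direction flips. SLBP was at 32.74, 37.32 and 39.12 FPKM. NPAT, the coactivator of clustered histone genes, was at 5.29, 4.11 and 4.89, and CASP8AP2, a scaffold of the nuclear body where these genes are transcribed, at 4.03, 3.17 and 3.9. Neither SLBP nor these 2 genes differed from vehicle by as much as the clustered histone sum did. The largest differences at 10 µM in the list belonged to MBLAC1, a nuclease that acts on histone pre-mRNA, at 1.45, 2.86 and 2.84 FPKM, to LSM10, a protein of the U7 particle that guides cleavage after the stem-loop, at 28.76, 39.46 and 39.86, and to MIF4GD, a partner of SLBP in translation, at 10.64, 13.09 and 14.24. POU2F1, which binds the octamer, was at 2.78, 2.53 and 1.97 FPKM.

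The list for the decay of histone mRNA had 17 symbols, with ZCCHC11 and ZCCHC6 as second names of TUT4 and TUT7. All its 15 genes were measured and none was called. At 10 µM 11 were lower and 4 higher, with a median of −0.13 (−0.18 to −0.13 among the scalings). The largest differences were in LSM6, of the ring that binds the ends of mRNAs being degraded, at 30.57, 26.31 and 20.06 FPKM, in UPF1, the helicase recruited by SLBP when DNA synthesis stops, at 40.63, 31.69 and 29.37, and in UPF2 at 8.72, 6.13 and 6.19. These 3 were lower at both doses.

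The list of histone chaperones and deposition factors had 27 symbols, with YL1 as a second name of VPS72. All its 26 genes were measured and none was called. At 10 µM 15 were lower and 11 higher, with a median of −0.04, and 15 to 20 were lower among the scalings. The subunits of the chromatin assembly factor that loads H3 and H4 behind the replication fork stayed close to vehicle, with CHAF1A at 43.74, 44.67 and 43.89 FPKM and CHAF1B at 33.38, 35.29 and 34.2, and the direction of both at 10 µM flips with scaling. ASF1B, which hands H3 and H4 to it, was at 38.12, 51.57 and 50.21. HIRA, which places H3.3, was at 16.39, 13.79 and 14.08. The largest differences were in MMS22L at 4.29, 2.99 and 2.51, ATRX at 10.53, 6.5 and 7.06, and TONSL at 11.62, 15.36 and 16.07 FPKM. MMS22L and TONSL act as a complex at stalled forks, and here they lay on opposite sides of vehicle. Among 10 further histone variant genes 6 were measured, and only CENPA, the H3 of centromeres, passed the filter, at 20.42, 15.55 and 16.75 FPKM.

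Because clustered histone genes are transcribed in S phase, 20 other genes of that phase were set beside them. None was called, 6 were lower and 14 higher than vehicle at each dose, and the median at 10 µM was 0.19 (0.13 to 0.19 among the scalings). SLBP is also in the list for processing. Among the largest differences were those of TK1, an enzyme of thymidine salvage, at 63.86, 96.75 and 100.84 FPKM, and of E2F1, a transcription factor of S-phase entry, at 24.31, 31.51 and 35.79. Both lay above vehicle, on the other side from the clustered histone genes.

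For the libraries as a whole, FPKM summed to between 487923 and 507342. All 7 measured markers of small cell lung cancer and neuroendocrine cells reached 1 FPKM in every library. Of 8 measured markers of other cell types, COL1A2 (370.87 to 412.4 FPKM) and COL1A1 (63.57, 85.84 and 98.52) were high in every library, CD68 was at 2.85, 6.05 and 7.34 and PTPRC at 0.92 to 1.09, and DCN, PECAM1, VWF and SFTPC were under 0.5. COL1A1 and CD68 were higher with each dose, and their part in the histone results was not tested. In bulk RNA, fewer cells in S phase and less histone mRNA per cell cannot be told apart. Whether polyadenylated RNA was selected is unknown, and a difference in the polyadenylated part of the clustered histone transcripts was not tested.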

How the data were processed

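RNA of H446 cells was measured in 3 libraries, 1 per group, sequenced from one end to 50 bases on an MGISEQ2000, per the labels' protocols. The submitters' processing notes name Trim Galore, BWA, Bowtie2, Cufflinks, Cuffdiff and build hg19. Not given in the sources used here are their versions, their roles, the annotation and how reads matching several gene copies were assigned. The authors deposited FPKM, per the file headers, for 16793 symbols. Read counts are not given, so depth is unknown. Groups and doses follow the treatment labels. The treated columns carry the codes ASB85 and ASB810, and every dose value rests on these meaning 5 and 10 µM of BAS.

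Values were compared as log2(FPKM + 1) among genes averaging 1 FPKM or more. A call is a difference of at least 1, and with 1 library per group no test was made. Sums were planned over members past the filter and are given over every measured member too, since the filter favours members high in 1 library. Members, gene lists and rules were chosen with earlier results of these data known. Named are all members past the filter, members under it that reach 1 FPKM or are listed at 0 in only some libraries, the 3 genes of each functional list with the largest difference at 10 µM, and SLBP, NPAT, CASP8AP2, CENPA, CHAF1A, CHAF1B, ASF1B and HIRA. A gene that this rule names is not reported here. POU2F1, CD68, PTPRC and the collagen genes were named after their values were seen.

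Stem-loops, coding identity and shared 50-base stretches were computed from GENCODE 29 transcripts and promoter windows from RefSeq (GRCh38.p14), with no hg19 coordinate converted. Alternatives were other scalings, pseudocounts of 0.1 and 0.5, no filter or one at 5 FPKM, limits of 1.5-fold and 4-fold, leaving out each type's highest member, and members with under 50% of shared sequence. The counting of identical copies as 1, and the H4 sum without HIST1H4J and HIST1H4K, were added after the values were seen. The calling step was run on simulated data with known shifts. This checks only its arithmetic, and not genes with low values or the spread between libraries. Python 3.11.15, numpy 2.4.6, pandas 2.3.3 and matplotlib 3.10.9 were used.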

Additional observations from a re-analysis of the deposited data

How the results depend on the processing

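Of 335 values recomputed under the alternatives, 311 stayed within 1.5 times the reported value and 24 moved further. Among the 311 are counts of 0 that stayed 0, and sums of variants under settings that dropped no variant. A median counted as within the limit when it moved by no more than the log2 of 1.5. The clustered median at 5 µM, −1.05 as reported and −0.48 without a filter, was among these. The 311 therefore overstate how steady the results were. Ratios and medians changed sides of no difference in 9 cases, all for sums of variants. With a scaling these were the H2A variants at 5 µM (0.972 to 0.997) and at 10 µM (0.995) and all variants at 10 µM (1.01). Without the highest member they were all variants (1.07) and those of H3 (1.07) at 10 µM, and those of H1 (1.03) and H2A (0.969) at 5 µM. With pseudocounts of 0.1 and 0.5, 3 clustered genes were called lower at 10 µM than at 5 µM under each (0.156% and 0.0956% of all genes), and with a limit of 1.5-fold 6 were lower (0.408%) and 1 higher. With that limit 1 variant was called at 10 µM, and of the genes in the functional lists 1 was called lower and 2 higher at each dose. Of all genes 1.62% were called lower at 5 µM and 3.47% at 10 µM with that limit. The share called higher with it was not computed, so no result is drawn from these counts. With a limit of 4-fold 1 clustered gene, HIST1H4J, was called lower at 5 µM (0.0174% of all genes). At 10 µM 4 were called lower, HIST1H4J among them (0.0347%). Its identical copy HIST1H4K was the 1 clustered gene called higher with that limit, at each dose. Without a filter the clustered median at 10 µM was −0.60. With a filter at 5 FPKM, which left 8 clustered genes, 6 were called lower at 5 µM (0.149% of all genes) and 7 at 10 µM (0.481%), and 0 higher. Among the 14 with under 50% of shared sequence, HIST2H4B included, 6 and 8 were lower and 0 higher. With identical copies counted once and HIST1H4J and HIST1H4K added up 0 were higher. Without HIST1H4J, the highest H4 member with vehicle, the H4 sum over members past the filter was 0.902 of vehicle at 5 µM and 0.534 at 10 µM, but this keeps the values of its identical copy HIST1H4K. Without both copies it was 0.407 and 0.283. The median of all genes lay between −0.03 and 0.07 under every scaling. The setting on shared sequence was not run for the functional lists. No paired analysis was possible because each group has 1 library. Depth is unknown, so no counting error could be given for genes with low values.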
